A study of Mus musculus with 8 samples.

Results

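The naive pluripotency transcription factors described here are 10 genes: Nanog, Esrrb, Klf2, Klf4, Klf5, Tbx3, Zfp42 (also known as Rex1), Tfcp2l1, Nr0b1 (also known as Dax1) and Gbx2. They were chosen by name, and every non-control probe whose accession maps to one of them was taken. That gave 11 probes for the 10 genes, of 39429 probes and 32530 genes on the array. Here and below, an accession without a symbol counts as a gene of its own. All 10 genes were well above background on all 8 arrays.

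The arrays measured total RNA from R1 cells, an established mouse embryonic stem cell line, 48 h after siRNA transfection and during differentiation as embryoid bodies, which are aggregates of stem cells grown without the conditions that keep them undifferentiated. Control (3 arrays) received a control siRNA. The groups siRNA 1 (3 arrays) and siRNA 2 (2 arrays) each received a different siRNA against CnAb1, a splice form of the calcineurin catalytic subunit encoded by Ppp3cb. The question is whether loss of CnAb1 alters how the cells differentiate towards mesoderm. All cells are of 1 line, and the labels do not say whether the arrays of a group came from separate cultures, so the p-values below reflect the spread among these arrays alone, and that spread may be technical.

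Naive pluripotency is the state of the epiblast before implantation. It is held by transcription factors that bind one another's genes and act downstream of LIF and Stat3 signalling, Wnt signalling and the core factors Pou5f1 and Sox2. When embryonic stem cells leave this state the naive factors are normally switched off early, while Pou5f1 stays on for longer. In bulk RNA, fewer cells of a type and less RNA per cell cannot be told apart.

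Values are log2 signal minus the 75th percentile of the array's signals, so 0 is a signal equal to that percentile. Levels are compared between arrays for the same probe only. The arrays had 68.0% to 75.1% of spots well above background, and no spot was saturated. The array codes in the files place 1 Control array on each of 3 slides. Slide 1 also held siRNA 1 replicate 1 and siRNA 2 replicate 1, slide 2 held siRNA 1 replicate 3, and slide 3 held siRNA 1 replicate 2 and siRNA 2 replicate 2. On every slide the first position was Control, the second siRNA 1 and the third, where used, siRNA 2, so position and group cannot be told apart. The probe for Ppp3cb read 0.75, 0.52 and 0.62 in Control, 0.18, 0.39 and 0.61 in siRNA 1, and 0.42 and 0.62 in siRNA 2. Its difference for the mean of both siRNAs against Control was -0.17 (SE 0.12, limma adjusted p = 1.00), and where this probe lies relative to the CnAb1 splice form was not determined here.

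The promoters of 8 of the 10 genes matched a RefSeq table (GRCm38.p6), and Klf5 and Tbx3 had no entry. They are shown because several of these genes varied together across the arrays, as described below. The 4 motifs named next were searched on both strands in windows of 300 bases around each start site, from 250 bases before it to 50 after. ATGCAAAT, the octamer bound by POU factors such as Pou5f1, was in the window of Zfp42, and 1.74% of all 32851 windows hold it. GGGNGTGGC, a site of the Klf family, was in the window of Tfcp2l1, against 5.76% of all windows. TCAAGGTCA, bound by orphan nuclear receptors such as Esrrb (0.423% of windows), and TTCCNGGAA, bound by Stat3 (1.15%), were in none of the members' windows. A match is a description of letters only. The sequences are written 5′ to 3′ on the strand of the gene, with motif matches in capitals. The Zfp42 and Gbx2 sequences are the 250 bases before the start site, on the minus strand at chr8:43307010-43307259 and chr1:89931177-89931426, and the Tfcp2l1 sequence is the plus strand at chr1:118627882-118627920. The Gbx2 promoter is given because Gbx2 had the smallest p-value of the 10 genes, and it held none of the 4 motifs.
Zfp42: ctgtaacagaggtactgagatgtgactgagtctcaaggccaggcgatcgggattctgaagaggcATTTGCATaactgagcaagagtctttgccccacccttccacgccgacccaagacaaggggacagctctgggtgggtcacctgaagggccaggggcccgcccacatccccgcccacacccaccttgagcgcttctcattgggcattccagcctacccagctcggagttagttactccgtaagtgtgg
Tfcp2l1: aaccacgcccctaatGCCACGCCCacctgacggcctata
Gbx2: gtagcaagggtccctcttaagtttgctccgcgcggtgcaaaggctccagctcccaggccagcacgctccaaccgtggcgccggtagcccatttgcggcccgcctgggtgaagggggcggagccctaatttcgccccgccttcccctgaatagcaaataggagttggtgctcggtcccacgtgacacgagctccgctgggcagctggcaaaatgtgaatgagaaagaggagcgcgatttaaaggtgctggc

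With both siRNAs averaged, all 10 factors read higher than in Control, with a median log2 difference of 0.48 and a range from 0.01 (Klf5) to 0.68 (Nr0b1). For Klf4, Klf5 and Tbx3 the sign rested on single arrays: without Control 1 they read -0.19, -0.16 and -0.13, and without siRNA 1 replicate 1 -0.039, -0.12 and -0.0064. None passed the limma test at an adjusted p of 0.05, and none of the 22427 genes tested did (0.0%). The smallest adjusted p of the 10 was 0.680, for Gbx2. At an unadjusted p under 0.05 there were 2 of the 10, Gbx2 and Klf2, beside 3.58% of all genes. The median of all genes was 0.01, and 52.9% of all genes read higher.

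**Figure D1:**
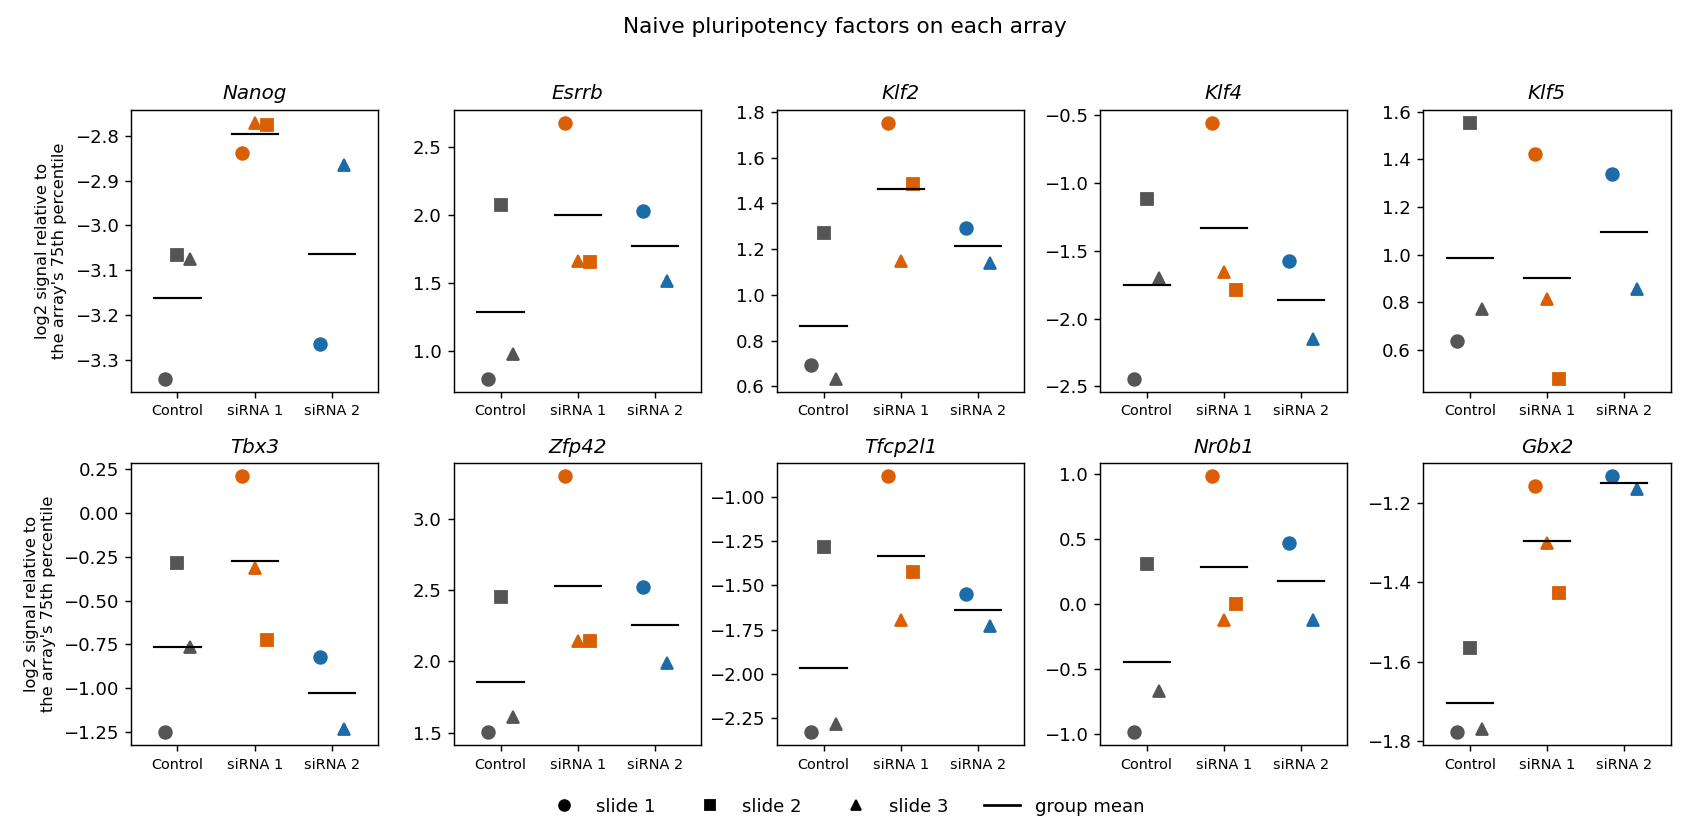
Level of each factor on each array, in log2 units from the 75th percentile of its array, by group. Symbols show the slide, horizontal bars the group mean, and each panel has its own axis. Control 2 (square) is the highest Control array in all 10 panels, and only for Gbx2 do all 5 siRNA arrays lie above it.

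Gbx2, a homeobox factor that acts downstream of LIF and Stat3, read -1.78, -1.57 and -1.77 in Control, -1.16, -1.30 and -1.43 in siRNA 1, and -1.13 and -1.17 in siRNA 2. All 5 siRNA arrays were above all 3 Control arrays, as in 2.43% of genes for this comparison. The difference was 0.48 (SE 0.09, 95% interval 0.26 to 0.70, 1.40-fold). It was 0.41 for siRNA 1 (SE 0.10) and 0.56 for siRNA 2 (SE 0.11), and the limma adjusted p was 0.680, 1.00 and 0.991. With the slide as a block the difference was again 0.48 (limma adjusted p = 0.965). Weighting the arrays by quality gave 0.51 and a limma adjusted p of 0.118. A second way of estimating those weights, added after the first was seen to call no gene, gave 0.52 and a limma adjusted p of 0.0493. Gbx2 thus passed the threshold in only 1 of the 2 weightings. In both, the Control side rested mostly on Control 3, with weights of 3.41 and 5.65. Control 1 had weights of 0.554 and 0.491, and Control 2 of 0.462 and 0.408. Over all alternatives tried its limma adjusted p ran from 0.0493 to 1.00.

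Nanog, the homeobox factor that lowers the need for LIF, read -3.34, -3.07 and -3.08 in Control and -2.84, -2.77 and -2.78 in siRNA 1. It read -3.26 and -2.87 in siRNA 2. The siRNA 1 arrays did not overlap with Control, as in 5.4% of genes in that direction, while siRNA 2 replicate 1 lay between the Control arrays. The differences were 0.37 (SE 0.13) for siRNA 1 and 0.10 (SE 0.14) for siRNA 2, both with a limma adjusted p of 1.00.

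Klf2, Klf4 and Klf5 are zinc finger factors that bind GC-rich promoter sites and share targets in embryonic stem cells. Klf2 read 0.69, 1.27 and 0.63 in Control, 1.75, 1.15 and 1.48 in siRNA 1, and 1.29 and 1.14 in siRNA 2. Both Control 1 and Control 3 were below every siRNA array, and Control 2 lay among them. Its difference was 0.47 for both siRNAs (SE 0.19, 95% interval 0.02 to 0.93, unadjusted p = 0.0442, limma adjusted p = 1.00). Klf4 read -2.45, -1.12 and -1.70 in Control, -0.55, -1.65 and -1.79 in siRNA 1, and -1.57 and -2.15 in siRNA 2. The groups overlapped, and the highest value was siRNA 1 replicate 1. The differences of Klf4 were 0.42 for siRNA 1 (SE 0.44) and -0.11 for siRNA 2 (SE 0.49).

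Klf5 read 0.64, 1.55 and 0.77 in Control, 1.42, 0.81 and 0.48 in siRNA 1, and 1.34 and 0.85 in siRNA 2. Its highest array was Control 2 and its lowest siRNA 1 replicate 3, so no siRNA array exceeded the highest Control. The difference for both siRNAs was 0.01 (SE 0.29), and its sign turned with normexp background correction, to -0.03.

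Esrrb, an orphan nuclear receptor, and Tfcp2l1, a Grainyhead-family factor that takes part in the LIF response, act with Nanog and Klf4 in the naive circuit. Esrrb read 0.80, 2.08 and 0.98 in Control, 2.68, 1.66 and 1.66 in siRNA 1, and 2.03 and 1.52 in siRNA 2. Control 2 exceeded 4 of the 5 siRNA arrays, and the difference for both siRNAs was 0.60 (SE 0.37, 95% interval -0.28 to 1.48). It was 0.36 without Control 1 and 1.00 without Control 2. Tfcp2l1 read -2.33, -1.28 and -2.28 in Control, -0.88, -1.69 and -1.42 in siRNA 1, and -1.55 and -1.73 in siRNA 2. The order of the arrays was of the same kind, with Control 2 above all but siRNA 1 replicate 1. Its difference was 0.48 (SE 0.29), 0.30 without Control 1 and 0.82 without Control 2, and the second Tfcp2l1 probe gave 0.71.

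Zfp42, a zinc finger protein long used as a marker of the undifferentiated state, read 1.503, 2.45 and 1.61 in Control, 3.30, 2.15 and 2.15 in siRNA 1, and 2.52 and 1.99 in siRNA 2. Only the replicate 1 arrays of siRNA 1 and siRNA 2 exceeded Control 2. Nr0b1, an orphan nuclear receptor that binds Pou5f1 and Esrrb, read -0.99, 0.31 and -0.67 in Control, 0.98, -0.13 and -0.0006 in siRNA 1, and 0.47 and -0.12 in siRNA 2. Here too only the 2 siRNA arrays of slide 1 exceeded Control 2. The differences for both siRNAs were 0.54 (SE 0.35) for Zfp42 and 0.68 (SE 0.38) for Nr0b1, each with a limma adjusted p of 1.00. Without Control 2 they were 0.84 and 1.06. The lowest values were 0.35 for Zfp42 without siRNA 1 replicate 1 and 0.41 for Nr0b1 without Control 1.

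Tbx3, a T-box factor of the naive circuit that is also used in endoderm and mesoderm, read -1.25, -0.28 and -0.76 in Control, 0.21, -0.31 and -0.72 in siRNA 1, and -0.82 and -1.24 in siRNA 2. Both siRNA 2 arrays lay below all 3 siRNA 1 arrays and within the range of Control. The differences from Control were 0.49 for siRNA 1 (SE 0.31) and -0.26 for siRNA 2 (SE 0.35).

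**Figure D2:**
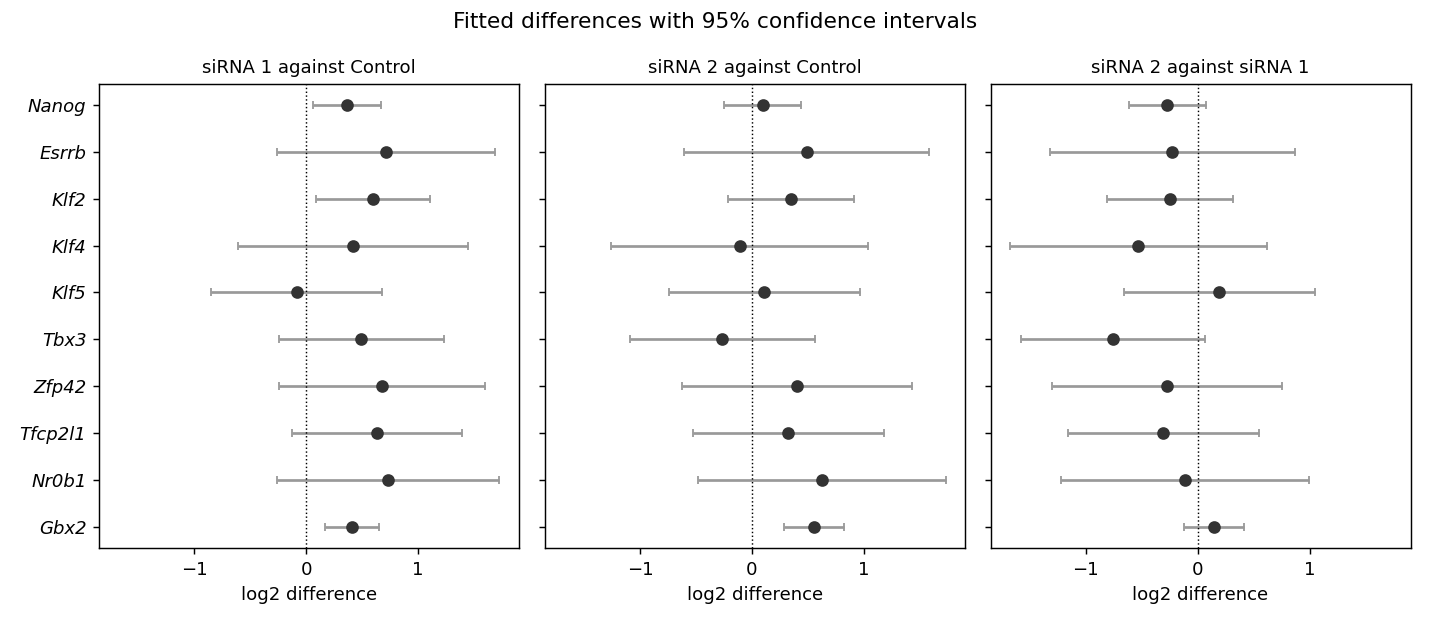
Fitted log2 differences of the 10 factors with 95% confidence intervals from limma, for siRNA 1 against Control, siRNA 2 against Control and siRNA 2 against siRNA 1. The intervals of Gbx2 exclude 0 against Control for each siRNA, those of Nanog and Klf2 for siRNA 1 alone, and no factor passed the adjusted threshold.

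For each siRNA alone, siRNA 1 gave 9 of 10 factors higher than Control (median 0.54) and siRNA 2 gave 8 of 10 (median 0.34). The 2 comparisons share their Control arrays. Again 0 of 10 passed the limma test in either, as for all genes (0.0% each). At an unadjusted p under 0.05 there were 3 for siRNA 1 (Gbx2, Nanog and Klf2), beside 3.5% of all genes, and 1 for siRNA 2 (Gbx2), beside 3.35%. Gbx2 and Nanog were the factors whose siRNA 1 arrays lay wholly above Control, and Gbx2 the one for siRNA 2, where 8.74% of all genes did so.

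Set against each other, siRNA 2 read lower than siRNA 1 for 8 of 10 factors, with a median of -0.26. The largest difference was that of Tbx3, at -0.76 (SE 0.35, 95% interval -1.58 to 0.07). Nanog and Tbx3 did not overlap between the 2 siRNAs, as in 11.8% of genes in this direction. No factor (0.0% of all genes) passed the limma test, and no factor had an unadjusted p under 0.05, beside 3.36% of all genes. Without siRNA 1 replicate 1 the median was 0.01.

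The spread between arrays of 1 group was large for most of these factors. Control 2 was the highest of the Control arrays for all 10, and Control 1 the lowest for 9. The median of the 10 relative to the Control mean was -0.36, 0.58 and -0.22 on the 3 Control arrays. It was 1.03, 0.31 and 0.33 on the siRNA 1 arrays and 0.42 and 0.23 on the siRNA 2 arrays, so Control 2 was above all siRNA arrays but siRNA 1 replicate 1. That array was the highest of all 8 for 7 factors, and Control 1 the lowest for 8. The shares of all genes with their highest or lowest value on these arrays were not counted. The counts therefore cannot be called particular to the 10 factors.

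Compared within slides, the result differed between slides. On slide 1 all 10 factors were above the Control array in siRNA 1 (median 1.46) and in siRNA 2 (median 0.74). On slide 3 all 10 were above it in siRNA 1 (median 0.49) and 8 in siRNA 2 (median 0.44), with Klf4 and Tbx3 lower at -0.45 and -0.47. On slide 2 only Nanog, Klf2 and Gbx2 were above the Control array, by 0.29, 0.21 and 0.14, and the median was -0.31. Those 3 factors were thus above the Control of their own slide on 5 of 5 siRNA arrays. The 2 siRNA arrays of slide 1 share a Control array, as do those of slide 3. On single arrays 47.6% to 58.6% of all genes were above that Control, and the share above it on all 5 was not counted.

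**Figure D3:**
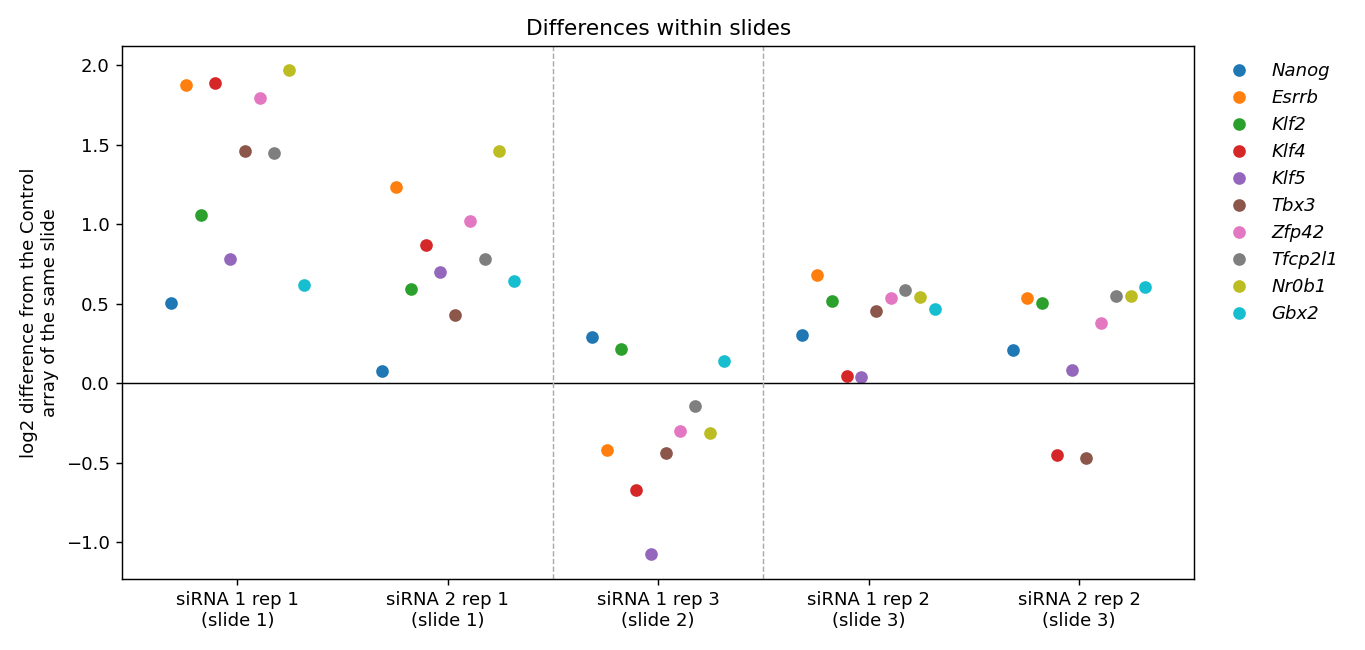
Log2 difference of each factor between an siRNA array and the Control array of its own slide, 1 column an siRNA array and 1 colour a factor. The columns of slide 1 hold positive values alone, and in the column of slide 2 7 of the 10 factors lie below 0.

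Without the 3 arrays of slide 1, the median for both siRNAs was 0.07, and Klf4, Klf5 and Tbx3 read -0.53, -0.41 and -0.35. Gbx2 read 0.40, Klf2 0.28 and Nanog 0.25 on those 5 arrays. Tfcp2l1 read 0.14, Nr0b1 0.087, Esrrb 0.060 and Zfp42 0.038, all well below their values over 8 arrays. With the slide as a block the median was 0.50. Within groups, slide 1 differed from the other slides for 5.92% of all genes (limma adjusted p under 0.05) and for 0 of the 10 factors. With 10 factors, that count cannot be told from the share of all genes. The fit holds 1 shift of slide 1 for all groups. It therefore cannot show opposite deviations on that slide, such as a low Control 1 beside a high siRNA 1 replicate 1. At an unadjusted p under 0.05 there was 1 factor, beside 15.5% of all genes: Nanog, with a slide 1 difference of -0.23 (unadjusted p = 0.0302, limma adjusted p = 0.237). The part of the slides and of the 2 arrays Control 2 and siRNA 1 replicate 1 in these differences was not tested further.

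Across the 8 arrays the range of the 10 factors had a median of 1.46 on the log2 scale, from 0.57 (Nanog) to 1.97 (Nr0b1, 3.92-fold). The median range was 0.47 over all genes above background on every array, 0.49 over 9 core pluripotency factors and 0.24 over 10 genes for exit from the naive state. It was larger, 2.05, over 14 markers of primitive and visceral endoderm. For 9 markers of primitive streak and mesoderm it was 1.05, and for 16 other naive genes 0.72. The remaining lists lay between 0.40 (LIF and Stat3 pathway) and 1.00 (early neuroectoderm). Pou5f1 ranged over 0.24 and Sox2 over 0.49. As a description over 8 arrays that share slides and groups, each factor was set against the mean of the other 9. Pearson's r was 0.99 for Esrrb, 0.98 for Zfp42, 0.97 for Nr0b1 and 0.96 for Tfcp2l1. It was 0.89 for Klf2, 0.88 for Klf4, 0.80 for Tbx3, 0.69 for Klf5, 0.64 for Gbx2 and 0.40 for Nanog. After centring on slides, r was lowest for Klf5 (0.66), Nanog (0.68) and Gbx2 (0.72).

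Genes with a symbol and well above background on all 8 arrays were ranked by likeness to the mean of the 10 factors. There were 14893, the 10 themselves included. Outside the 10, the most alike over the 8 arrays were Manba (r = 0.994), Chrna9 (0.993), Accsl (0.992), Pfkp (0.991) and Galnt6 (0.990). The lowest values were those of Bik (-0.982), Cyfip2 (-0.982), Hmgb3 (-0.980), Inka2 (-0.978) and Slc30a9 (-0.978). With 8 arrays and this many genes, such values describe likeness only.

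Of 16 other genes of the naive state, 13 read higher with both siRNAs (median 0.18) and 0 passed the limma test. Fgf4, the growth factor that stem cells secrete and that drives their exit from the naive state, read 3.23, 3.31 and 3.19 in Control, 3.69, 3.55 and 3.76 in siRNA 1, and 3.68 and 3.72 in siRNA 2. All siRNA arrays were above all Control arrays, as in 2.43% of genes for this comparison, and the 2 siRNA groups overlapped. The difference of Fgf4 was 0.44 (SE 0.08, limma adjusted p = 0.677). Prdm14, which represses differentiation genes, gave 0.74 (SE 0.28, limma adjusted p = 1.00). The LIF and Stat3 pathway had 7 of 12 genes higher (median 0.02), with values from -0.28 to 0.23. The 2 with the smallest p were the receptor gene Lifr at 0.23 and its partner Il6st at -0.12. The Wnt, Gsk3 and Tcf7l1 list had 4 of 9 higher (median -0.01), with the Wnt target Axin2 at -0.55 and Lef1 at 0.15.

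The core factors had 6 of 9 genes higher (median 0.08), with Sall4 at -0.10 and Zfp281 at 0.08. Genes of the formative and primed epiblast, the states that follow the naive one, had 6 of 10 higher (median 0.04), with Pou3f1 at 0.21 and Sox3 at 0.19. The exit genes had 6 of 10 higher (median 0.03), with Zfp281 at 0.08 and Zfp706 at 0.09. In each of these lists 0 genes passed the limma test.

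Markers of undifferentiated cells were well above background on all arrays, and 2 of 6 read higher with both siRNAs (median -0.05). The 2 with the smallest p, Tdgf1 at -0.18 and Sall4 at -0.10, read lower. No marker of any cell type passed the limma test in any comparison. All 15 tested markers of primitive and visceral endoderm read lower for the mean of both siRNAs (median -0.72), among them Foxa2 at -0.93 and Cubn at -0.83. Taken singly, with siRNA 2 all 15 read lower (median -1.16), and with siRNA 1 12 read lower (median -0.28). The 3 that read higher with siRNA 1, named after their values were seen, were Ttr at 0.89, Afp at 0.69 and Hnf4a at 0.24. The summed level of all 15 tested endoderm markers is given in multiples of the array's 75th percentile signal. It was 11.01 to 33.2 in Control, 12.1 to 20.8 in siRNA 1 and 9.55 to 10.8 in siRNA 2. Of 9 markers of primitive streak and mesoderm, 7 read lower (median -0.62), and the lowest value in the list was -1.17. The 2 with the smallest p were Fgf8 at -1.08 and Eomes at -0.62. Their summed level was 9.48 to 11.1 in Control, 6.95 to 10.4 in siRNA 1 and 7.05 to 7.28 in siRNA 2.

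Trophectoderm markers had 6 of 9 higher (median 0.15, summed level 19.0 to 20.1 in Control, 17.3 to 20.2 in siRNA 1 and 17.6 to 18.7 in siRNA 2), with Krt7 at 0.41 and Eomes, on both lists, at -0.62. Early neuroectoderm markers had 1 of 7 higher (median -0.08, summed level 2.78 to 4.64, 2.32 to 3.82 and 2.49 to 4.26), with Sox11 at -0.28 and Nes at -0.20. Fibroblast markers had 2 of 8 higher (median -0.14, summed level 4.28 to 4.87, 3.85 to 4.98 and 4.64 to 4.82), with Twist2 at -0.15. Fap was well above background on the 3 Control arrays and on none of the siRNA arrays, so it entered the test through Control alone. Its Control mean was 1.61-fold above a bound taken from each siRNA array's lowest signal well above background. Its fitted difference had a limma adjusted p of 0.771. Because Control selected it, the direction of this difference is no evidence of a decrease. Afp, Apoa1, Mixl1, Mesp1, Elf5, Neurog2, Fap, Postn and Lum were above background on some arrays only. The part of these cell types in the values of the naive factors was not tested.

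**Figure D4:**
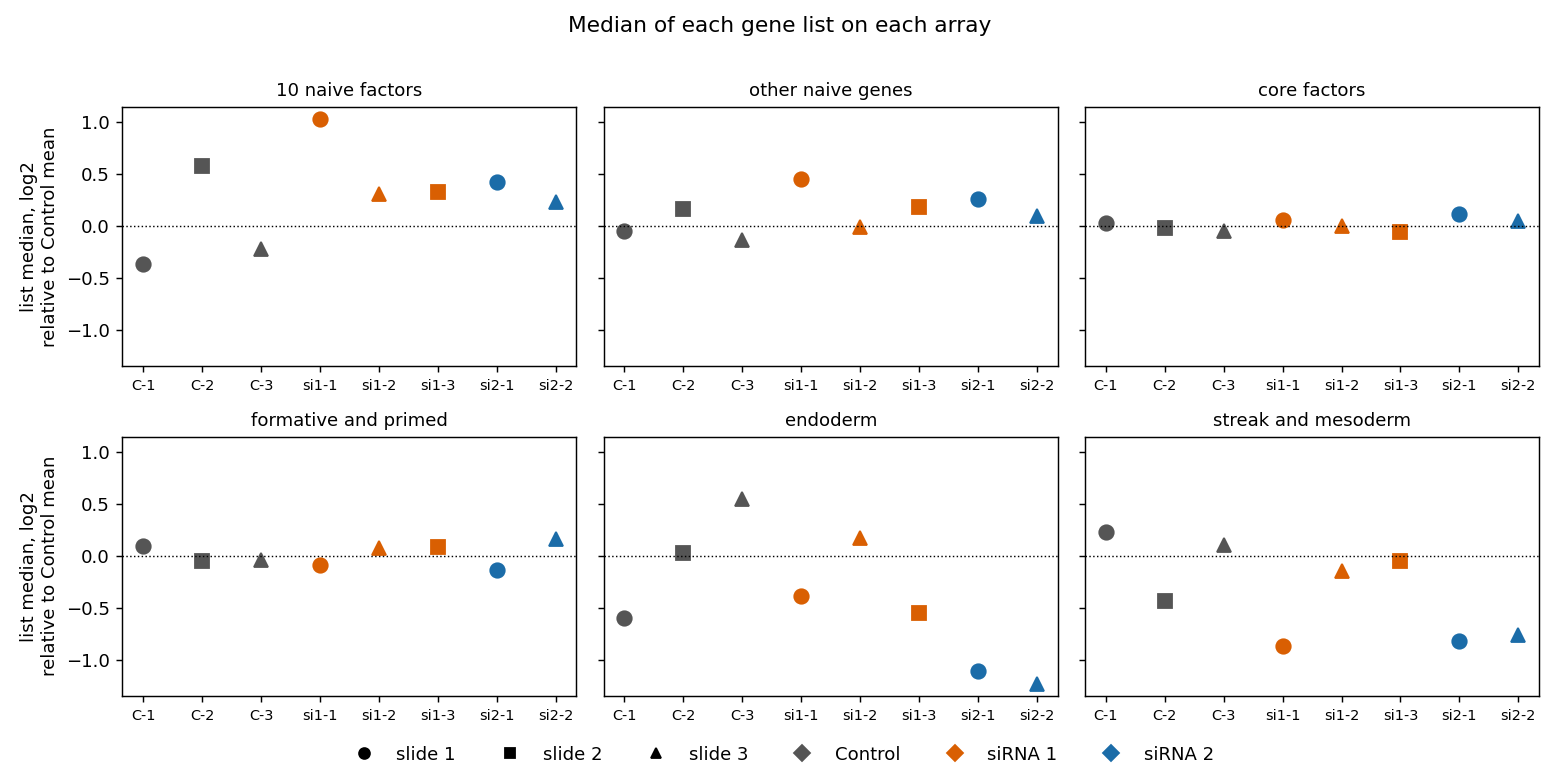
Median log2 level of each gene list on each array, relative to the Control mean of each gene. C, si1 and si2 mark Control, siRNA 1 and siRNA 2 with the replicate number, and symbols show the slide. The 10 naive factors run from -0.36 (Control 1) to 1.03 (siRNA 1 replicate 1), while the core factors stay between -0.06 and 0.12. The endoderm markers run from -1.23 (siRNA 2 replicate 2) to 0.54 (Control 3).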

How the data were processed

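Each array was deposited as a scanner file of 1-colour intensity values, and per the file headers the program was Agilent Feature Extraction, version 10.7.3.1. Its yes or no flags for outliers and for signal well above background were used as deposited. A deposited value table holds log2 values, centred for each probe, and was used as an alternative only. RMA is listed, without a role, in the submitters' processing notes. In that table the Control 2 column matched the Control 3 scanner file and the reverse (r = 0.9998 and 0.9999, against -0.0494 and -0.0482 for their own), and scanner file names were used here.

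Control and outlier spots were left out, spots of a probe averaged, and accessions matched to symbols through RefSeq GRCm38.p6 (26424 of 39429 probes). The probe with the highest mean stood for a gene, and 22427 genes were tested, those well above background throughout 1 or more groups. Of these, 15571 had a symbol and the others were accessions without one. limma 3.58.1 (lmFit, eBayes) in R 4.3.3 was fitted over the 3 groups to log2 signal minus each array's 75th percentile, with Benjamini-Hochberg adjustment at 0.05, after being tested on simulated data. The number of arrays limits the precision. The members and lists were chosen with earlier results of these data known. Named were all members, the 2 genes with the smallest p of each further list and the 5 most and 5 least alike genes. Pou5f1, Sox2, 3 endoderm markers and the genes called under an alternative were named besides, after their values were seen. Normexp (on median signals), quantile and median scaling, filters, probe choice, blocks, array weights and leaving out arrays were tried as alternatives.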

Additional observations from a re-analysis of the deposited data

How the results depend on the processing

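No member passed the threshold under any alternative but 1. Array weights estimated on all 22427 genes, as planned, called 0 genes for both siRNAs against Control. Because that result was then seen, weights estimated on the 22412 genes with no missing value were added, after seeing the data. They called 24 genes and 1 member, Gbx2 (0.52, limma adjusted p = 0.0493), and their estimation stopped with a convergence warning. Control 3 had the highest weight in both weightings (3.41 and 5.65). For Nr0b1 in siRNA 2 against siRNA 1 the 2 weightings gave 0.12 and 0.13, and the slide block 0.0088, against -0.11. That comparison called 1 gene, Afp, when only the groups compared were fitted. Afp was not well above background on the 2 siRNA 2 arrays and entered the test through the other groups. The size of its fitted difference therefore rests on signals too dim to measure.

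Leaving out 1 array at a time gave 0 to 1 called genes for both siRNAs and for siRNA 1 (Ifi202b, without Control 3), 0 to 3 for siRNA 2 and 0 to 4 for siRNA 2 against siRNA 1 (each without 1 siRNA 2 array, among them Mid2 and Reg3b), and no member. Without 1 siRNA 2 array that group is a single array, assumed to vary like the other groups, so those calls rest on 1 array. The members' median ranged from 0.33 to 0.61 for both siRNAs, 0.36 to 0.77 for siRNA 1, 0.18 (without Control 1) to 0.59 (without Control 2) for siRNA 2, and -0.40 to 0.01 between the siRNAs. For both siRNAs Klf4 ranged from -0.19 to 0.47, Klf5 from -0.16 to 0.30 and Tbx3 from -0.13 to 0.36. Klf5 in siRNA 1 ranged from -0.34 to 0.20. In siRNA 2 Klf4 ranged from -0.46 to 0.21, Klf5 from -0.13 to 0.39 and Nanog from -0.10 to 0.30. Between the siRNAs Esrrb ranged from -0.48 to 0.11, Klf5 from -0.049 to 0.45, Nr0b1 from -0.41 to 0.24 and Zfp42 from -0.54 to 0.11.

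Without the arrays of slide 1, the values that turned were Klf4 (-0.53), Klf5 (-0.41) and Tbx3 (-0.35) for both siRNAs, Klf4 (-0.31) for siRNA 1, and Esrrb (-0.011), Klf5 (-0.31) and Zfp42 (-0.041) for siRNA 2. Normexp turned Klf5 for both siRNAs (-0.031). The cause was not tested.

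Same-numbered arrays did not all deviate together (correlations from -0.04155 to 0.6978), and the numbers were not taken to pair the samples. Arrays of the same slide had correlations from 0.04383 (Control 2 with siRNA 1 replicate 3) to 0.6978. Under the value table's naming of Control 2 and Control 3, same-numbered arrays share a slide, so the slide block then pairs them. The replicate block used the numbers of the scanner files. With the replicate block 0 genes were called, the members' median for both siRNAs was 0.44, and Klf5 read -0.068 for both siRNAs and -0.052 for siRNA 2. Not every array correlated best with its own number.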
